A study of Homo sapiens with 6 samples.

Results

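The smooth-muscle contractile genes described here are ACTA2, ACTG2, TAGLN, CNN1, MYL9, MYLK, TPM1, TPM2, CALD1 and MYH11, taken by symbol from the table of FPKM values (fragments scaled to the length of the transcript and to the mapped fragments of the library). All 10 were found, each in 1 row with 1 value per library, among 63009 genes read. The libraries came from ERRAS cells, early-passage IMR90 human lung fibroblasts that stably carry oncogenic H-RasV12 fused to the ligand-binding domain of the estrogen receptor, so that tamoxifen switches Ras on. The 3 control libraries were from uninduced cells, and the 3 Ras-induced libraries from cells given 100 nM tamoxifen for 4 days, per the labels, whereas the study's methods name 4-hydroxytamoxifen with a dose by mass, so the compound and dose are uncertain. Both groups were then arrested in mitosis with 1 μM dimethylenastron (DME), an inhibitor of the kinesin Eg5, and the detached mitotic cells were collected for poly(A) RNA-seq. Control and Ras-induced cells thus share the construct, the mitotic arrest and the detachment, and differ in tamoxifen as well as in Ras activity, so that the drug and the oncogene cannot be told apart here.

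Myofibroblasts are fibroblasts that have taken on part of the contractile apparatus of smooth muscle. Actin filaments of the smooth-muscle isoforms are stabilized by tropomyosin, bundled and regulated by transgelin, calponin and caldesmon, and pulled by myosin whose regulatory light chain is phosphorylated by myosin light chain kinase. Most of these genes are transcribed through SRF (serum response factor), which binds a DNA element called the CArG box. SRF works either with the myocardin-related cofactors (MRTFs), which sense free actin and favour the contractile genes, or with the ternary complex factors (TCFs) of the ELK family, which are phosphorylated by ERK and favour early-response genes.

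CArG boxes were looked for in the promoters of the members because these genes moved together. RefSeq promoter windows (GRCh38.p14, 250 bases before to 50 bases after a start) were matched by symbol for 7 of the 10 members, in 12 windows, and were not found in that table for TAGLN, MYL9 and MYH11. A CArG box was taken as CC, then 6 bases of A or T, then GG on either strand. It lay in 2 of the 12 windows, those of ACTG2 and MYLK, and in 1.29% of all 35116 windows. When 1 of the inner bases could be C or G, 4 members had a box, ACTA2, ACTG2, MYLK and CALD1, and 8.13% of all windows did. Of the 12 windows of the members 4 held such a degenerate box. CNN1, TPM1 and TPM2 had none in these windows. The 150 bases before the start are shown for the 4 members, and for ACTG1 as a non-muscle actin whose promoter also held a box, with the boxes in capitals.
ACTA2: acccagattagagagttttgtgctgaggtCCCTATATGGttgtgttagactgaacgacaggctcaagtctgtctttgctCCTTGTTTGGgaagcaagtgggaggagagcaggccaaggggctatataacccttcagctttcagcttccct
ACTG2: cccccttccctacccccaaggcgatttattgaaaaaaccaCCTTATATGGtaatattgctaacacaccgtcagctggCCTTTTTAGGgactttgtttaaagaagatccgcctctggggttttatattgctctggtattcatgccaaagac
MYLK: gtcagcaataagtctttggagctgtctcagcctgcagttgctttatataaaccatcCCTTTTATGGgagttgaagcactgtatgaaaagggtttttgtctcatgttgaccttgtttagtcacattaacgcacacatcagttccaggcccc
CALD1: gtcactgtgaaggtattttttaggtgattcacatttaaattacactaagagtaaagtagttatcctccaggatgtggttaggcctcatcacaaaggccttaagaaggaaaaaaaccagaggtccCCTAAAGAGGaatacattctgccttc
ACTG1: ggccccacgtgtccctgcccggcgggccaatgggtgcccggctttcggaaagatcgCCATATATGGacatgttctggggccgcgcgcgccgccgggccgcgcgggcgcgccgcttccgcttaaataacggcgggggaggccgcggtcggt

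The ACTA2 window lies at chr10:88952774-88952923 (minus strand), that of ACTG2 at chr2:73892858-73893007 (plus), that of MYLK at chr3:123620549-123620698 (minus), that of CALD1 at chr7:134711349-134711498 (plus) and that of ACTG1 at chr17:81512800-81512949 (minus), all of GRCh38.p14. Both ACTA2 boxes were degenerate, CCCTATATGG with its first base at -121 and CCTTGTTTGG at -71 from the start. Both ACTG2 boxes were strict, CCTTATATGG at -110 and CCTTTTTAGG at -73, as was that of MYLK, CCTTTTATGG at -94. CALD1 had CCTAAAGAGG at -26 in 1 of its 4 windows. Among the 16 paralogs of the members listed below, 15 were matched and 5 had a strict box (ACTA1, ACTC1, ACTG1, CNN2 and TPM4). The shorter motif CATTCC, the core of the TEAD-binding MCAT element, was in 4 of the 12 member windows (ACTA2, MYLK and CALD1) and in 14% of all windows. TATAAA was in 3 of the 12 (ACTG2, MYLK and CALD1) and in 11.5% of all. Without the 50 bases after the start, CATTCC was left in ACTA2 and CALD1 only. A CArG box was thus present in promoters of genes that fell and of genes that did not pass the test.

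**Figure D1:**
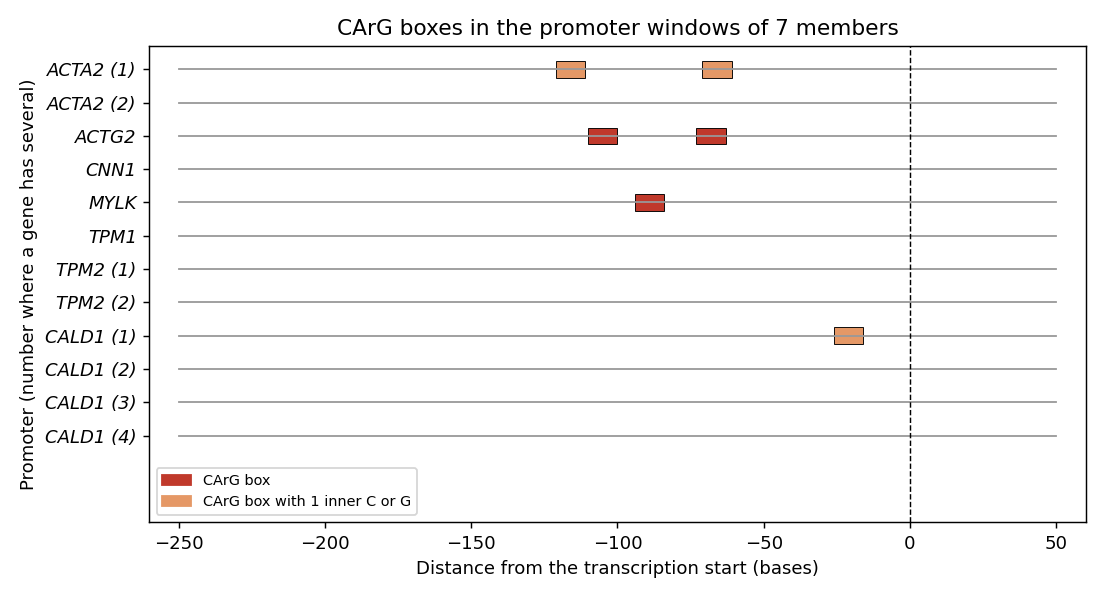
CArG boxes in the 12 promoter windows of 7 members. The x axis is the distance from the transcription start in bases, each line is 1 window, red boxes are strict and orange boxes degenerate; ACTG2 and ACTA2 each have 2 boxes within 121 bases of a start.

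As a check of the labels, HRAS, whose fragments can come from the gene or the construct, measured 1175, 1176 and 1140 FPKM in control and 1439, 1847 and 1473 FPKM in Ras-induced libraries, without overlap (log2 fold change 0.44, limma adjusted p = 0.0431). That call was lost in 9 of 14 alternative analyses. The fibroblast markers VIM and COL1A1 averaged 2149 and 1345 FPKM in control cells. Of 8 markers of differentiated smooth muscle and pericytes, DES and MYH11 averaged 0.866 and 1.53 FPKM there, far below the other 9 members. RGS5, MCAM and LMOD1 averaged 2.6, 8.56 and 9.26 FPKM, and CSPG4, CNN1 and SMTN 64.9, 83.5 and 169.5 FPKM. Of 10 markers of striated muscle 6 were listed at 0 in every library, and of the endothelial and leukocyte markers PECAM1 and CD3E were too. The PECAM1 entry has no position in the annotation used, so its 0 may not mean absence. TEK, CD68 and KRT18, from the endothelial, leukocyte and epithelial lists, averaged 15.3, 27.8 and 48.15 FPKM in control cells. No read counts were used, so absolute depth is not given. The steps between low FPKM values put the depth of the libraries between 0.847 and 1.16 of the first control library.

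To ask which genes Ras activation altered in mitotic cells, limma was run on log2(FPKM + 1) over the 13993 genes whose mean FPKM reached 1. A gene is called where the Benjamini-Hochberg adjusted p over all of these was at or under 0.05, and log2 fold changes are Ras-induced over control on that scale, which understates the change of low genes. All 10 members passed the filter. Of these 7 were lower in Ras-induced mitotic cells, ACTA2, ACTG2, TAGLN, CNN1, MYL9, MYLK and CALD1, and 0 were higher (8 and 0 at an unadjusted p under 0.05 from limma). Of all tested genes 16.7% were called, 5.67% lower and 11.0% higher. TPM1, TPM2 and MYH11 did not pass the test. The groups did not overlap for the same 7 genes, against 39.9% of all tested genes without overlap, 12.8% with every Ras-induced value below the controls. The median log2 fold change of the 10 members was -1.16, beside 0.10 for all tested genes. That background moved with scaling, from 1543 genes higher and 793 lower in the deposited values to 1044 higher and 1109 lower after quantile normalization, while the members' count stayed at 7 lower. In RNA from a pool of cells, fewer cells expressing a gene and less of its RNA in each cell cannot be told apart.

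**Figure D2:**
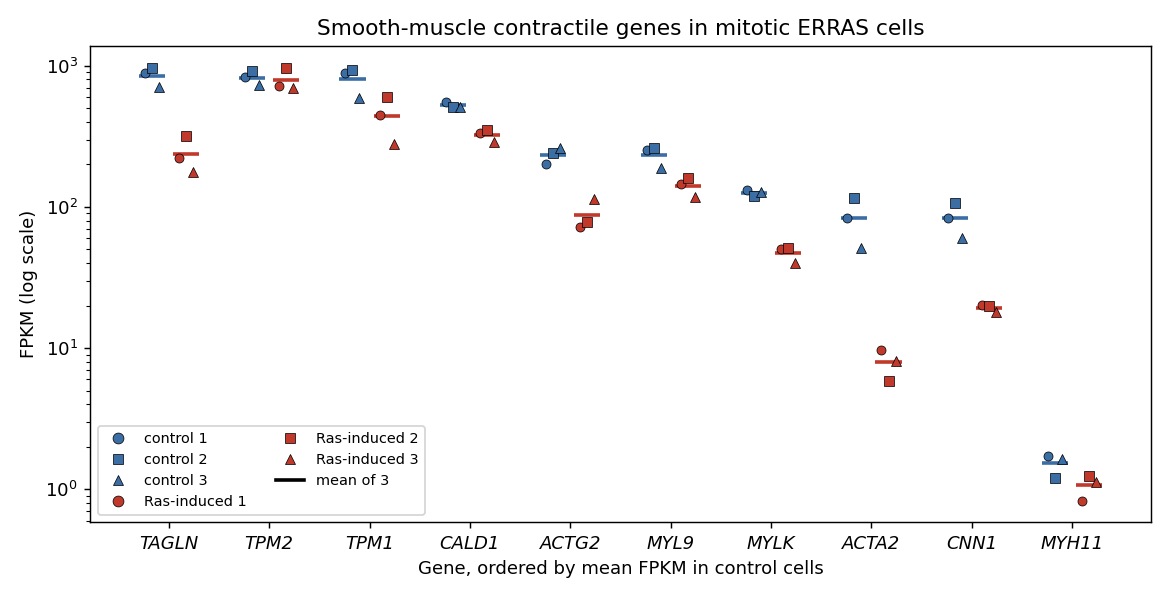
FPKM of the 10 members in each library on a log scale, ordered by their mean in control cells. Blue points are the 3 control and red points the 3 Ras-induced libraries, and bars are the means of 3; the groups overlap only for TPM1, TPM2 and MYH11.

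Both smooth-muscle actins fell, ACTA2 the furthest of the 10 members. ACTA2 (ENSG00000107796, chromosome 10 of GRCh37 from 90694831 to 90751096, minus strand), which encodes the alpha isoform that defines myofibroblasts, measured 84.0, 116 and 51.2 FPKM in control and 9.76, 5.84 and 8.14 FPKM in Ras-induced libraries. Even the lowest control lay several times above the highest Ras-induced library, although the controls themselves differed widely. The means were 83.8 ± 32.4 and 7.91 ± 1.97 FPKM (SD, n = 3), 10.6-fold lower after induction, giving a log2 fold change of -3.20 (SE, standard error, 0.31, adjusted p = 0.00279 from limma). This was the fall of rank 24 among the 13993 tested genes. ACTG2 (ENSG00000163017, chromosome 2 from 74119441 to 74146992), the gamma smooth-muscle isoform typical of visceral muscle, measured 202.5, 241 and 261 FPKM in control and 72.0, 77.7 and 114 FPKM in Ras-induced libraries. It was the more abundant of the pair in all 6 libraries, and it fell 2.67-fold, from 235 ± 29.7 to 87.9 ± 22.8 FPKM (SD, n = 3; log2 fold change -1.43, SE 0.19, adjusted p = 0.00628 from limma). Coding sequences of the actin genes are nearly identical, so the division of fragments among them by the authors' estimate is uncertain.

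Of the actin-binding proteins TAGLN and CNN1 fell further than ACTG2 in log2 fold change, and CALD1 less. TAGLN (ENSG00000149591, chromosome 11 from 117070086 to 117078180), which encodes transgelin or SM22, an actin-bundling protein and early marker of smooth muscle, measured 884, 956 and 709 FPKM in control and 222, 317 and 175 FPKM in Ras-induced libraries. Its means were 849.6 ± 127 and 238 ± 72.2 FPKM (SD, n = 3), 3.57-fold lower (log2 fold change -1.86, SE 0.22, adjusted p = 0.00486 from limma). CNN1 (ENSG00000130176, chromosome 19 from 11649582 to 11661138), basic calponin, which inhibits the myosin ATPase on actin, measured 83.5, 106 and 60.6 FPKM in control and 20.2, 20.0 and 17.9 FPKM in Ras-induced libraries. The 3 Ras-induced values lay close together, at 19.4 ± 1.27 FPKM against 83.5 ± 22.8 FPKM (SD, n = 3), 4.3-fold lower (log2 fold change -2.02, SE 0.19, adjusted p = 0.00279 from limma). CALD1 (ENSG00000122786, chromosome 7 from 134429003 to 134655480), caldesmon, which binds actin, tropomyosin and myosin and has both smooth-muscle and non-muscle isoforms, measured 552, 510 and 513 FPKM in control and 336, 349.6 and 288 FPKM in Ras-induced libraries. Its fall was 1.62-fold, with little spread in either group (log2 fold change -0.70, SE 0.10, adjusted p = 0.00699 from limma).

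The myosin arm fell in its kinase and, less securely, in its light chain. MYLK (ENSG00000065534, chromosome 3 from 123328896 to 123603179, minus strand), myosin light chain kinase, measured 131, 119.6 and 127 FPKM in control and 50.2, 51.4 and 39.8 FPKM in Ras-induced libraries. The control values spanned 119.6 to 131 FPKM, and the means of 126 ± 5.77 and 47.2 ± 6.37 FPKM (SD, n = 3) differed 2.67-fold (log2 fold change -1.41, SE 0.11, adjusted p = 0.00197 from limma, the smallest among the 10). MYL9 (ENSG00000101335, chromosome 20 from 35169900 to 35179850), the smooth-muscle regulatory light chain, measured 253, 261 and 189.5 FPKM in control and 145, 161 and 117 FPKM in Ras-induced libraries. It was 1.66-fold lower, and the nearest values of the groups were 189.5 and 161 FPKM (log2 fold change -0.73, SE 0.17, adjusted p = 0.0313 from limma). That call was lost without control library 1 (adjusted p = 0.0948 from limma), control library 2 (0.0962), Ras-induced library 1 (0.0778) or Ras-induced library 3 (0.0881), and without a filter on low values (0.0834). MYH11 (ENSG00000133392, chromosome 16 from 15796992 to 15950885, minus strand), the smooth-muscle myosin heavy chain, measured 1.74, 1.21 and 1.65 FPKM in control and 0.832, 1.24 and 1.13 FPKM in Ras-induced libraries. The groups overlapped (log2 fold change -0.29, 95% interval -0.74 to 0.16, adjusted p = 0.328 from limma).

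The tropomyosins, which wind along the actin filament, did not pass the test, and the 2 members differed in their values. TPM1 (ENSG00000140416, chromosome 15 from 63334819 to 63364114) measured 889, 940.0 and 593 FPKM in control and 445, 605 and 279.8 FPKM in Ras-induced libraries. The groups overlapped by 1 library on each side, control 3 and Ras-induced 2 (log2 fold change -0.90, SE 0.30, 95% interval -1.63 to -0.18, adjusted p = 0.0894 from limma). TPM2 (ENSG00000198467, chromosome 9 from 35681989 to 35690053, minus strand) measured 830.2, 911 and 725 FPKM in control and 721, 969.9 and 696 FPKM in Ras-induced libraries. Its values overlapped throughout (log2 fold change -0.06, 95% interval -0.42 to 0.31, adjusted p = 0.823 from limma), and the sign turned positive without control library 2 (0.02), Ras-induced library 1 (0.01) or Ras-induced library 3 (0.03). In control cells TAGLN, TPM2 and TPM1, at means of 849.6, 822 and 807 FPKM, did not differ beyond their spread. In Ras-induced cells TPM2 came first at 795.5 ± 151.5 FPKM, followed by TPM1 at 443 ± 163, CALD1 at 324 ± 32.4 and TAGLN at 238 ± 72.2 FPKM (SD, n = 3), of which TPM1, CALD1 and TAGLN lay within overlapping ranges.

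The order of the libraries within a group was shared by some members and not by others. Control library 3 was the lowest of the controls for 6 of the 10 members (ACTA2, TAGLN, CNN1, MYL9, TPM1 and TPM2), and control library 2 was the highest for the same 6. Among the Ras-induced libraries, library 2 was the highest for 7 members and library 3 the lowest for 7. ACTG2 was highest in library 3 of both groups, control library 2 was the lowest for MYLK, CALD1 and MYH11, and Ras-induced library 2 the lowest for ACTA2. The coefficient of variation over the controls was 38.7% for ACTA2, 27.3% for CNN1 and 23.2% for TPM1, against a median of 12.1% over all tested genes, and was 4.59% for MYLK and 4.49% for CALD1. In Ras-induced cells it was 36.7% for TPM1 and 30.3% for TAGLN, against a median of 11.7%, and 6.54% for CNN1. The summed FPKM of the 10 members was 3911, 4161 and 3232 in the controls and 2022, 2559 and 1737 after induction, with every Ras-induced library below every control.

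Several members overlap other annotated genes, and the library kit does not mark strand, so fragments in a shared stretch cannot be told apart. TAGLN shares 2233 exonic bases with PCSK7 on the opposite strand, which is listed at means of 77.7 FPKM in control and 32.6 FPKM in Ras-induced cells. MYH11 shares 1063 with NDE1, a dynein regulator of mitosis listed at 115.7 and 84.6 FPKM, many times the level of MYH11 itself. TPM1 shares 691 with the antisense entry ENSG00000259627, listed at 147 and 82.2 FPKM, and 2645 with TPM1-AS, listed at 1.27 and 1.95 FPKM. MYLK shares 612 with MYLK-AS1, listed at 0.328 and 0.498 FPKM. ACTA2 shares 380 with FAS, listed at 21.2 and 11.7 FPKM, and 1638 with ACTA2-AS1, listed at 0.16 and 0.0799 FPKM. The part of these overlaps in the results was not tested.

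The paralogs of the members, among them the non-muscle actins and myosins of the general cytoskeleton, were compared to see whether whole families moved. Of 16 paralogs 13 were tested, 3 were lower (CNN2, MYH9 and MYH10) and 1 higher (TAGLN3), and the median log2 fold change was -0.14. Without control library 2 the count of called paralogs was 2. The non-muscle actins ACTB and ACTG1, at means of 2819 and 3134 FPKM in control cells, had log2 fold changes of -0.23 (95% interval -0.54 to 0.08, adjusted p = 0.262 from limma) and -0.15 (-0.46 to 0.15, adjusted p = 0.427). CNN2 measured 318.5, 319 and 287 FPKM in control and 227, 218.5 and 190.1 FPKM in Ras-induced libraries (log2 fold change -0.54, adjusted p = 0.0135 from limma, 0.0539 without control library 1 and 0.0555 without control library 2). CNN3 was at 0.01 (95% interval -0.19 to 0.20) and turned negative under both other scalings and in some fits without 1 library. The light chains MYL12A and MYL12B were at 0.15 and 0.01, and MYL6 at -0.14, none of them called. TPM3 and TPM4 were at 0.12 and -0.24.

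The non-muscle myosin heavy chains, which drive cytokinesis and cortical tension, did fall. MYH9 measured 475, 494 and 602 FPKM in control and 278, 293 and 277 FPKM in Ras-induced libraries, without overlap (log2 fold change -0.88, SE 0.10, adjusted p = 0.00454 from limma). MYH10 measured 38.3, 45.2 and 70.7 FPKM in control and 28.4, 24.5 and 29.7 FPKM in Ras-induced libraries (log2 fold change -0.83, adjusted p = 0.0474 from limma, and not called in 6 of 14 alternative analyses). Its call was lost without a filter or a trend, and without control library 2 (adjusted p = 0.0946 from limma) or Ras-induced library 1 (0.108), 2 (0.121) or 3 (0.102). TAGLN3, a transgelin best known from neurons, rose from 0.453, 1.41 and 1.10 FPKM in control to 15.2, 16.6 and 31.9 FPKM in Ras-induced libraries, or 3.44 in log2 fold change (SE 0.32, adjusted p = 0.00252 from limma) in the same family in which TAGLN fell. Even so it stayed far below TAGLN in FPKM. The striated-muscle actins were too low to test. ACTC1 was at 0.389, 1.37 and 1.13 FPKM in control and between 0.0334 and 0.0484 FPKM after induction, and ACTA1 at 0.48 FPKM or less throughout.

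**Figure D3:**
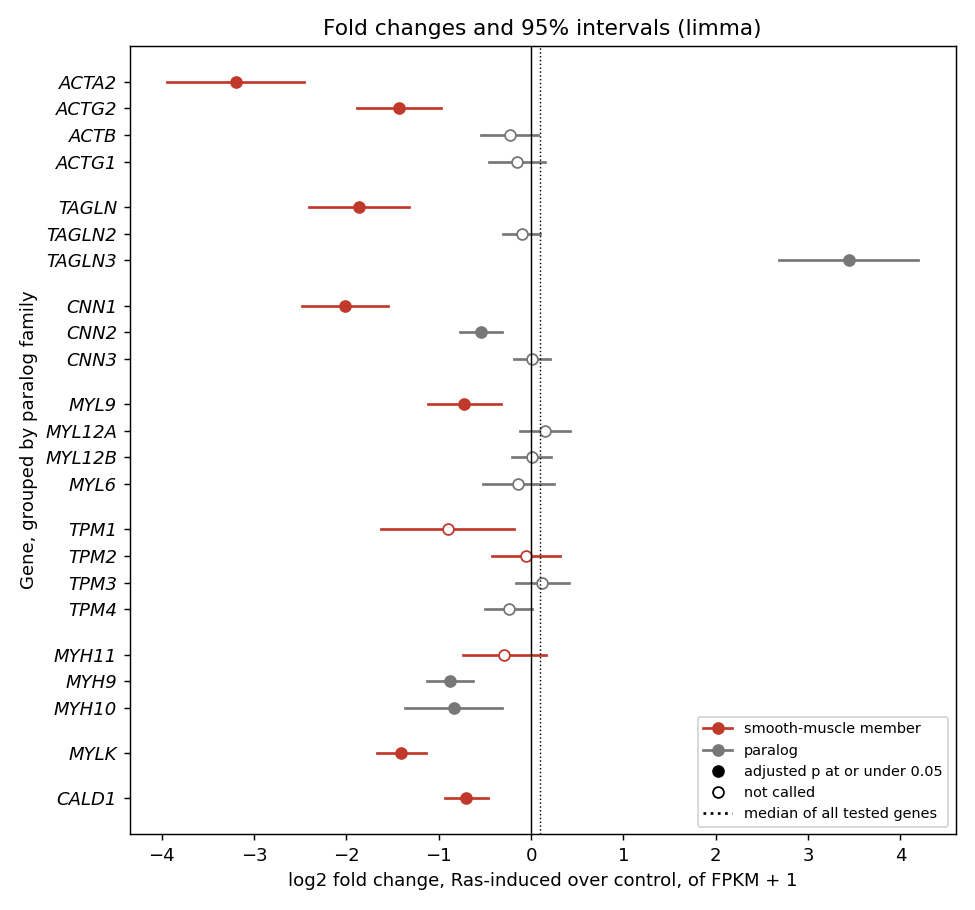
Log2 fold changes of FPKM + 1, Ras-induced over control, with 95% intervals from limma, for the 10 members (red) and the 13 tested paralogs (grey) grouped by family. Filled points passed at an adjusted p at or under 0.05; ACTA2, ACTG2, TAGLN, CNN1 and MYL9 lie to the left of the paralogs in their families.

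FPKM is scaled to transcript length, so that each member could also be expressed as a percent of the summed FPKM of its family in the same library, a measure that does not move with library scaling. ACTA2 made up 1.33%, 1.72% and 0.893% of actin FPKM in control and 0.201%, 0.0943% and 0.164% in Ras-induced libraries, and ACTG2 3.19%, 3.57% and 4.55% against 1.48%, 1.25% and 2.3%. Both groups were separate for both isoforms, and the non-muscle actins made up nearly all of the rest. TAGLN made up 60.1% ± 2.17 of transgelin FPKM in control and 30.2% ± 6.01 in Ras-induced cells (SD, n = 3), so that TAGLN2 took over as the main transgelin. CNN1 made up 14.5% ± 2.71 and 4.73% ± 0.13 of the calponins, and MYL9 23.6% ± 1.66 and 14.8% ± 1.84 of the regulatory light chains. These changes were larger than the spread between replicates, with no overlap.

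Within the tropomyosins the members moved apart. TPM1 made up 26.4%, 26.7% and 22.2% of their FPKM in control and 17.5%, 19.2% and 11.9% in Ras-induced libraries, whereas TPM2 made up 24.6%, 25.9% and 27.1% and then 28.4%, 30.9% and 29.6%. The share of TPM1 was thus lower without overlap although its FPKM overlapped, and that of TPM2 higher without overlap although its FPKM did not pass the test. MYH11 made up 0.268% ± 0.0601 and 0.343% ± 0.063 of myosin heavy chain FPKM (SD, n = 3), with overlap, in a family whose main member MYH9 fell. In an exact permutation test over libraries, two-sided, p was 0.1 for 7 of the 8 shares (0.114 adjusted over the 8) and 0.2 for MYH11, and 0.1 is the smallest p that 3 libraries against 3 allow. A ratio within a family shows unequal change and does not say which gene moved.

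**Figure D4:**
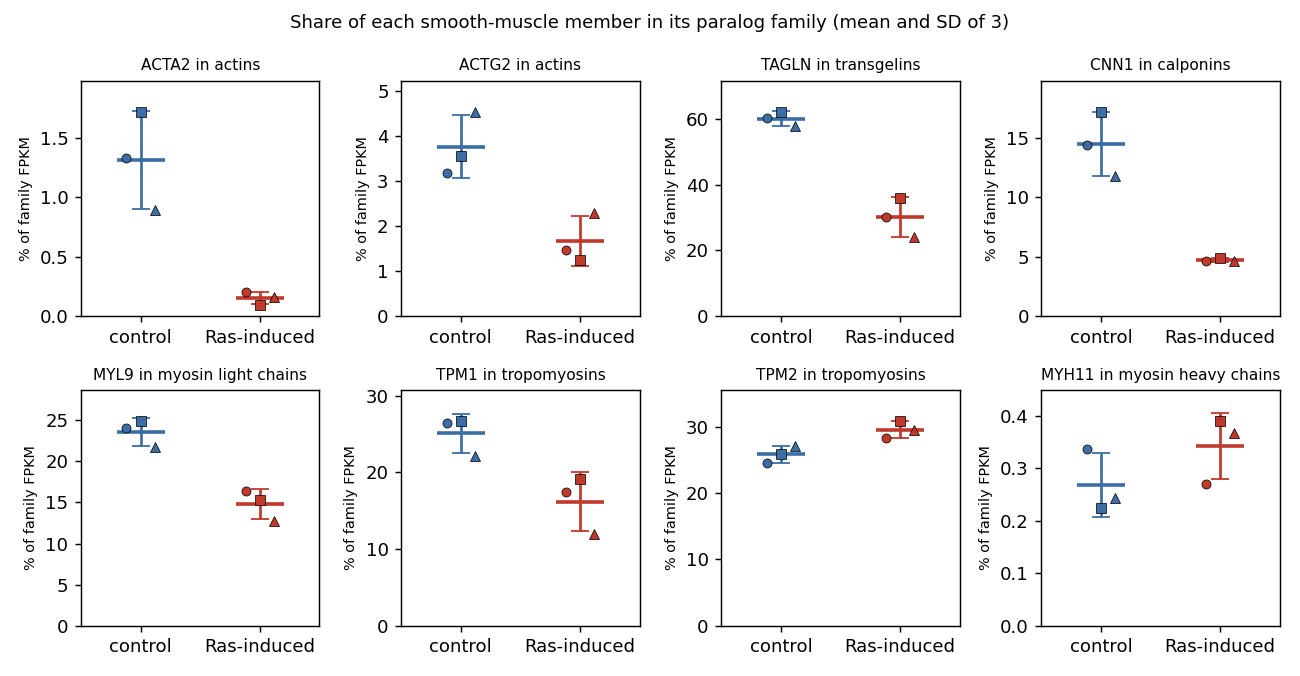
Percent of the summed FPKM of its paralog family held by each of 8 members, in 3 control (blue) and 3 Ras-induced (red) libraries, with the mean and SD of 3; y axes start at 0 and differ between panels. All shares but those of TPM2 and MYH11 are lower in the Ras-induced libraries without overlap.

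The regulators of the members were split. SRF itself measured 48.4, 48.6 and 36.9 FPKM in control and 44.5, 41.7 and 38.5 FPKM in Ras-induced libraries (log2 fold change -0.09, 95% interval -0.39 to 0.21, adjusted p = 0.65 from limma). Of the 13 genes for SRF and its cofactors 12 were tested, 3 were lower (MYOCD, CSRP1 and CSRP2) and 2 higher (ELK1 and ELK3). Without Ras-induced library 1 or 3 the count was 3, all lower. MYOCD, which encodes myocardin, the smooth-muscle coactivator of SRF, measured 4.26, 4.54 and 2.29 FPKM in control and 0.402, 0.265 and 0.13 FPKM in Ras-induced libraries. It was at -1.86 in log2 fold change (SE 0.25, adjusted p = 0.00675 from limma), and it was called in all 13 alternatives that tested it. MKL1 and MKL2, the broadly expressed MRTFs, were at -0.12 and -0.25 and did not pass the test.

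CSRP1 and CSRP2, LIM proteins that bridge SRF and GATA factors in smooth muscle, fell from 298 ± 46.4 to 169 ± 9.4 FPKM and from 96.6 ± 15.2 to 49.8 ± 4.41 FPKM (SD, n = 3), with log2 fold changes of -0.80 and -0.93 (limma adjusted p = 0.0106 and 0.00733). ELK1 and ELK3, TCFs that share SRF with the MRTFs, rose, at log2 fold changes of 0.69 and 0.36 (limma adjusted p = 0.0294 and 0.0217). The call of ELK3 was lost after quantile normalization (adjusted p = 0.0509 from limma) and upper-quartile scaling (0.0669), and each of the pair lost its call in 5 of 14 alternatives. ELK4 was at -0.07, and TEAD1 and TEAD3, which bind the MCAT element, both at -0.35, without passing the test (limma adjusted p = 0.122 and 0.0553). FHL2 was at 0.08.

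Among 20 other targets of SRF and MRTFs 18 were tested, and 6 were lower (LMOD1, CYR61, LPP, VCL, FLNA and ACTN1) and 1 higher (FILIP1L), with a median log2 fold change of -0.18. LMOD1, leiomodin, an actin nucleator of smooth muscle, measured 8.14, 11.5 and 8.12 FPKM in control and 0.711, 0.579 and 0.236 FPKM in Ras-induced libraries (log2 fold change -2.76, SE 0.20, adjusted p = 0.00152 from limma). CYR61, a matricellular protein, fell from 194 ± 19.5 to 74.2 ± 6.27 FPKM, and VCL, vinculin of focal adhesions, from 207 ± 10.6 to 122.5 ± 9.32 FPKM (SD, n = 3), with log2 fold changes of -1.37 and -0.76 (limma adjusted p = 0.00186 and 0.00396). FLNA, filamin A, was at -0.52, LPP at -0.82, ACTN1, alpha-actinin, at -0.30, and FILIP1L at 1.08 (limma adjusted p = 0.0135, 0.0455, 0.039 and 0.027), and these calls were lost in 3, 8, 10 and 5 of 14 alternatives, in this order. The zyxin gene ZYX, TLN1 for talin and TGFB1I1 for Hic-5 were all at -0.16 and did not pass. Of the 7 calls, 3 were left without control library 2 or Ras-induced library 3 and 4 without control library 3.

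The early-response targets of SRF and TCFs went the other way. Of 8 genes 6 were tested, 5 were higher (FOS, EGR1, EGR3, JUNB and MCL1) and 0 lower (6 and 0 at an unadjusted p under 0.05 from limma), and the median log2 fold change was 1.33. EGR1, an immediate-early transcription factor, measured 5.28, 3.95 and 3.51 FPKM in control and 21.2, 15.4 and 23.8 FPKM in Ras-induced libraries (log2 fold change 2.00, SE 0.19, adjusted p = 0.00279 from limma). MCL1, an anti-apoptotic gene, measured 27.4, 24.5 and 23.9 FPKM and then 64.8, 57.6 and 64.9 FPKM (log2 fold change 1.27, SE 0.09, adjusted p = 0.00148 from limma). FOS rose from 1.4 ± 0.184 to 3.46 ± 0.0911 FPKM, EGR3 from 0.417 ± 0.0387 to 4.75 ± 1.54 FPKM and JUNB from 1.27 ± 0.694 to 5.1 ± 2.4 FPKM (SD, n = 3), the last not called in 5 of 13 alternatives. IER2 was at 0.53 and did not pass (limma adjusted p = 0.0632).

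**Figure D5:**
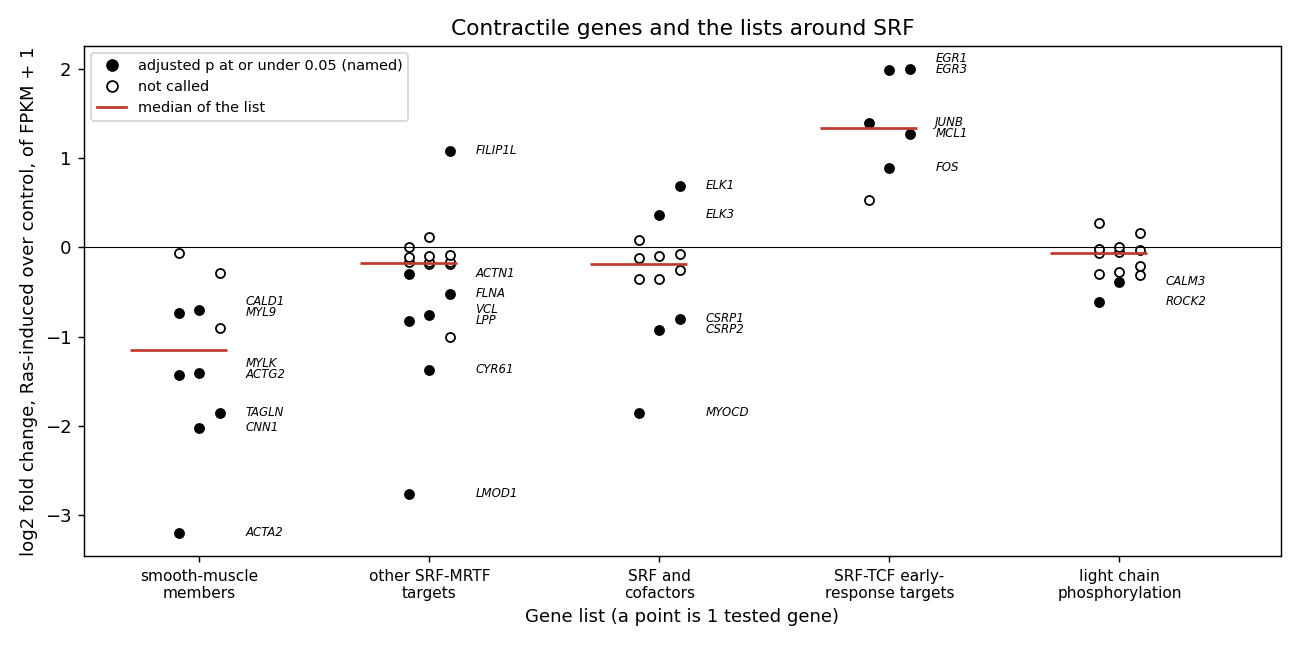
Log2 fold changes of FPKM + 1, Ras-induced over control, of the tested genes in 5 lists; each point is a gene, filled and named where the limma adjusted p was at or under 0.05, and red lines are list medians. The median is -1.16 for the members and 1.33 for the SRF-TCF early-response targets.

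Around the light chain, phosphorylation is set by RhoA and the ROCK kinases, by myosin phosphatase and by calmodulin, which activates MYLK. Of 14 such genes 13 were tested and 2 were lower, ROCK2 (35.0, 31.3 and 30.1 FPKM in control, 24.1, 18.7 and 19.5 FPKM in Ras-induced libraries, log2 fold change -0.61, adjusted p = 0.0191 from limma) and CALM3 (log2 fold change -0.39, adjusted p = 0.0339 from limma). The median log2 fold change of this list was -0.06, and over all tested genes 16.7% were called, 5.67% lower. ROCK1 was at -0.02, the phosphatase subunits PPP1R12A and PPP1CB at -0.31 and 0.01, and RHOA at -0.28, none called. The count was 0 without control library 1, control library 2 or Ras-induced library 3, 1 without Ras-induced library 1 or 2, and 4 without control library 3. After quantile normalization 3 were lower and 1 higher, and after upper-quartile scaling 5 were lower.

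TGF-beta is the main cytokine that turns fibroblasts into myofibroblasts. Among the genes of its signalling, the ligand TGFB1 had a log2 fold change of 0.20 (95% interval -0.24 to 0.64), the receptors TGFBR1 and TGFBR2 were at -0.15 and 0.28, and the signal transducers SMAD2 and SMAD3 at 0.19 and -0.43. The inhibitor SMAD7 was at -0.10, and none of these 6 genes passed the test (limma adjusted p = 0.477, 0.468, 0.0525, 0.275, 0.071 and 0.867, in this order). At an unadjusted p under 0.05 from limma, TGFBR2 was higher and SMAD3 lower.

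Genes with profiles like those of ACTA2 and TAGLN were found by the root mean square difference over the 6 libraries between log2(FPKM + 1) profiles centred on each gene's mean. The nearest to ACTA2 was LMOD1, at 0.39, followed by KIAA1199 (0.47), SNORA12 (0.47), which was listed at 0 in all Ras-induced libraries, CXCL12 (0.49) and EFEMP1 (0.52). With a pseudocount of 0.1, 1 of these 5 was still among the nearest. The nearest to TAGLN were MYBL2 (0.07), PTN (0.11), ATP10A (0.15), IGFBP7 (0.15) and PAWR (0.16). MYBL2, a transcription factor of proliferating cells, measured 51.7, 57.1 and 44.6 FPKM in control and 11.4, 17.4 and 10.1 FPKM in Ras-induced libraries. The order of the libraries was that of TAGLN in both groups, which is no separate result, because MYBL2 was picked for its likeness to TAGLN.

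Lists of markers for other cell types and for the stage of mitosis were read beside the members. Of 9 fibroblast markers 3 were lower, LUM, COL1A2 and THY1, with a median log2 fold change of -1.19 (5 lower without Ras-induced library 2, with a pseudocount of 0.1, with a filter at 5 FPKM or after upper-quartile scaling), and their summed FPKM spanned 4829 to 5409 in the controls against 3156 to 4382 after induction. VIM and PDGFRA were at 0.06 and -0.11. Of 10 mitotic-stage markers 6 were lower, with a median of -0.28 and summed FPKM of 2252 to 2332 in the controls against 1764 to 1960 after induction, and the count was 2 without control library 1, 1 without control library 2, Ras-induced library 1 or Ras-induced library 3. Of the differentiated smooth-muscle and pericyte markers other than the members, LMOD1 and CSPG4 were lower. Among endothelial markers 1 of 5 was tested, TEK, and it was lower. Of 4 epithelial markers and 1 leukocyte marker tested, 0 were called by limma, while KRT18 and CD68 were higher at an unadjusted p under 0.05, and the summed FPKM of the 6 epithelial markers was 72.0 to 80.2 in the controls against 82.7 to 86.3 after induction. The part of these lists in the fall of the contractile genes was not tested.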

How the data were processed

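RNA from 3 control and 3 Ras-induced samples was sequenced by the authors as poly(A) libraries, trimmed (Trim Galore 0.3.0), aligned by TopHat2 to hg19 using known Ensembl 73 junctions, and summarised per gene with Cufflinks. The FPKM values were deposited by the authors in 1 table with a column per library, whose names give the group and a number, and no scaling between libraries is given in the sources used here. Of 63129 genes listed, 120 with more than 6 values were left out, 0 of them members, together with 18 unnamed columns that hold their extra values. The deposited cuffdiff comparison (group values, fold changes, p-values and q-values) was not used.

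Here, log2(FPKM + 1) of genes averaging 1 FPKM or more was fitted in R 4.3.3 by limma 3.58.1, whose eBayes step followed the mean-variance trend. The p-values were two-sided and were adjusted over 13993 genes (Benjamini-Hochberg). Per the study, the 3 samples of a group came from independent repeats of the experiment. The labels do not tie a sample number to a repeat. The procedure was tested on simulated data. Shares were compared by exact permutation. The members and lists were chosen with earlier results of these data known. Named are all members, their paralogs and cofactors, called genes of the other lists (uncalled ones only for context), the 5 genes nearest to ACTA2 and to TAGLN, genes overlapping a member, and HRAS. A result on TGF-beta signalling is not reported here. Coordinates are from GENCODE 44 lifted to GRCh37, the build of hg19, and promoters from RefSeq on GRCh38.p14. Same-numbered libraries showed little shared deviation over all tested genes (correlations of -0.003, 0.043 and 0.048), which cannot exclude pairing. Among the members, library 2 was mostly the highest and library 3 mostly the lowest in both groups. The settings varied were the pseudocount (0.1), the filter (none, or 5 FPKM), the scaling (quantile or upper quartile), the trend (none), a replicate block, each library left out, summed rows of repeated symbols, a ratio to 1 paralog and a shorter promoter window. Python 3.11.15 with pandas 2.3.3, numpy 2.4.6 and matplotlib 3.10.9 were also used.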

Additional observations from a re-analysis of the deposited data

How the results depend on the processing

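The count of members called lower was 7 under another pseudocount, a filter at 5 FPKM, both scalings, no trend and summed rows, 6 without a filter on low values, and from 6 to 7 when 1 library was left out. Over all genes tested, the median log2 change was 0.10 in the deposited values, 0.01 after quantile normalization and 0.00 after upper-quartile scaling. Over all tested genes 2336 were called, 1518 without a filter on low values and from 998 to 1956 without 1 library. Among the other listed genes 35 were called, 23 without a filter and from 18 to 34 without 1 library. The value of TPM2 ranged from -0.21 to 0.03 without 1 library and changed sign in 3 of those fits. With a replicate block 8 members were lower, TPM1 among them (adjusted p = 0.0147 from limma), and 2310 genes were called. Whether same-numbered libraries came from the same repeat is not known. The log2 change in the ratio of TAGLN to TAGLN2 was -1.74, further than in its share of the transgelins (60.1% and 30.2%), and that of MYL9 to MYL12A was -0.88, against -0.67 in its family share. Of the 5 genes nearest to ACTA2, 1 was shared with the list at a pseudocount of 0.1. The fits without 1 library had fewer libraries, and the fit without a filter had more genes to adjust over. The cause of these changes was not tested. With 3 libraries a group and no read counts, precision rests on the spread between replicates and, in limma, on the trend of that spread over all tested genes.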

Other observations

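Some genes outside the contractile program stood out in the marker lists. TEK, the angiopoietin receptor listed as an endothelial marker, measured 16.4, 14.4 and 15.0 FPKM in control and 4.78, 5.29 and 4.72 FPKM in Ras-induced libraries (log2 fold change -1.45, standard error 0.10, adjusted p = 0.00126 from limma), while PECAM1 was listed at 0 throughout and VWF was at 0.0988 FPKM or less. LUM, the matrix proteoglycan lumican, measured 43.3, 47.2 and 58.0 FPKM in control and 15.1, 13.4 and 7.3 FPKM in Ras-induced libraries (log2 fold change -2.01, adjusted p = 0.00582 from limma). CSPG4, a proteoglycan of pericytes, fell from 64.9 ± 18.4 to 32.1 ± 3.34 FPKM (SD, n = 3; log2 fold change -0.96, adjusted p = 0.022 from limma, not called in 5 of 14 alternatives), and COL1A1, which did not pass, went from 1345 ± 180.3 to 550 ± 289 FPKM (SD, n = 3; adjusted p = 0.0501 from limma).

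Other genes linked to muscle were too low to test. DES was at 0.463, 1.44 and 0.699 FPKM in control and 0.304, 0.242 and 0.0923 FPKM in Ras-induced libraries, and ANKRD1, a target of MRTF and YAP, at 0.981, 0.434 and 0.264 FPKM and then 0.0608, 0.0406 and 0 FPKM. For both genes every Ras-induced value lay below every control value.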
